A study of Mus musculus with 29 samples.

Results

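The transcripts of GSK3 and its main partners in canonical Wnt signalling were followed in mouse prefrontal cortex across 4 combinations of genotype and treatment. The 10 genes were chosen by name, for their place in the pathway that lithium is known to act on, out of 18240 genes in the deposited table. Earlier results of these data were known at that choice, so it was not independent of them. The 10 genes are Gsk3a and Gsk3b, the destruction complex members Apc and Axin2, Ctnnb1, the transcription factors Lef1 and Tcf7l2, the ligands Wnt4 and Wnt7b, and the receptor Fzd7. All 10 passed the filter on low values, which asked for a normalised read count of at least 10 in at least 3 libraries.

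The mice were C57BL/6J animals of postnatal day 40. Tbr1+/K228E heterozygotes (HT) carry 1 copy of Tbr1, a T-box transcription factor gene of cortical neurons, with the K228E substitution, and received vehicle (6 libraries), fluoxetine, a serotonin reuptake inhibitor (8 libraries), or lithium, a mood stabiliser (7 libraries). Wild-type mice (WT) received vehicle (8 libraries), and no WT mice with a drug were analysed here, so a drug effect could not be compared between genotypes. Each group held 3 or 4 females and 3 or 4 males. The labels give neither dose, route nor duration, and nothing in them says that replicates came from different litters.

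GSK3 is a serine/threonine kinase with an alpha and a beta form, encoded by Gsk3a and Gsk3b. In the absence of a Wnt ligand it phosphorylates beta-catenin, the product of Ctnnb1, in a complex built on Axin and Apc, and the marked protein is degraded. Binding of a Wnt ligand to a Frizzled receptor with its coreceptor inactivates that complex, and beta-catenin then acts with Lef1 and Tcf7l2 on target genes, among them Axin2 and Lef1 themselves. Lithium inhibits the GSK3 kinases directly and through their phosphorylation. The measurements here are of transcripts and not of kinase activity, phosphorylation or beta-catenin protein.

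Total reads per library lay between 22.81 M and 31.71 M. The cortical neuron genes Slc17a7 (32387 to 47980 normalised counts) and Tbr1 (2151 to 4766) were present in all 29 libraries, which matches the tissue label. Markers of neighbouring tissue varied between libraries: in 9 of them (4 HT fluoxetine, 1 HT lithium, 1 HT vehicle and 3 WT vehicle) the striatal or olfactory bulb marker mean was more than 1 log2 unit above the median of all libraries.

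Promoter windows of RefSeq (GRCm38.p6; 250 bases before to 50 after the annotated start) were read for 8 of the 10 genes, in 13 windows. They were searched on both strands for the core of the TCF/LEF site, CTTTGA, and for GGTGTGA, the half-site of T-box factors such as Tbr1. The first was present in 16% of all 32851 mouse promoter windows and the second in 3.98%. A TCF/LEF core lay in 3 of the 13 windows, those of Gsk3a and Gsk3b and 1 of the 4 of Lef1, and a T-box half-site in 1 of the 13, that of Gsk3a. With so few windows these shares are not set apart from the background. The bases before the earliest annotated start are printed 5′ to 3′ for both kinase genes, as the targets of lithium, and for Wnt4 and Fzd7, the genes called against wild type. Capitals mark a TCF/LEF core (TCAAAG, the other strand of CTTTGA) and the T-box half-site (TCACACC). The matches describe letters and not binding, which was not measured.
Gsk3a, chr7:25237852-25238101, minus strand: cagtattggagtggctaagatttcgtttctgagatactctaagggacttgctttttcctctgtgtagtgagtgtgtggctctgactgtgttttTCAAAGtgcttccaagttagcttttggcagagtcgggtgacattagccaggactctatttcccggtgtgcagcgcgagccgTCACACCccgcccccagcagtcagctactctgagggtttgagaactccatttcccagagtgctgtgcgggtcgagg
Gsk3b, chr16:38088751-38089000, plus strand: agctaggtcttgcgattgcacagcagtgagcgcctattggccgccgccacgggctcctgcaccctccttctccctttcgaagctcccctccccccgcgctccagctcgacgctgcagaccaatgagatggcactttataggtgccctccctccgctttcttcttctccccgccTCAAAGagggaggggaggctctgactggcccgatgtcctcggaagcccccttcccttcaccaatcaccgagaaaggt
Wnt4, chr4:137277385-137277488, plus strand: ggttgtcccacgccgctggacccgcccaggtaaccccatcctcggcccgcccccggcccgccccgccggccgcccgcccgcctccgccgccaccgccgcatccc
Fzd7, chr1:59481897-59482146, plus strand: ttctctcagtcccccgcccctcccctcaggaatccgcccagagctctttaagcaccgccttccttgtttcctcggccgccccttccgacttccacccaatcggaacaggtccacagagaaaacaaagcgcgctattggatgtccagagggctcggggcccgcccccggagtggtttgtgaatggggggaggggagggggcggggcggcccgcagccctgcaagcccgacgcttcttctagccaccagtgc
In the Gsk3a sequence the TCF/LEF core began 157 bases and the T-box half-site 76 bases before the start, and in the Gsk3b sequence the TCF/LEF core began 77 bases before it. The Wnt4 and Fzd7 windows held neither motif.

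The chosen genes differed widely in abundance. Per kilobase of merged exons, the median normalised count over 29 libraries was 2840 for Ctnnb1, which also serves cell adhesion, the highest of 15 genes for beta-catenin and its nuclear partners. On the same scale it was 2101 for Gsk3a and 533 for Gsk3b, 1st and 7th of 19 destruction complex genes, with Apc 2nd at 1218 and Axin2 14th at 166. The nuclear factors Lef1 at 18.8 and Tcf7l2 at 12.2 were the 2 lowest of their list of 15. Wnt7b at 291 was the most abundant ligand per kilobase and Wnt4 at 173 the 3rd, after Wnt9a at 231. Fzd7 at 42.6 stood 9th of 15 receptors and coreceptors, far below Fzd3 at 273. The lowest library of Gsk3a on this scale (1824) was above the highest of Gsk3b (626), so on this scale the order of the kinase genes held in all 29 libraries. It rests on the merged exon lengths, 2.9 kb for Gsk3a and 9.83 kb for Gsk3b. Before division by length the ranges overlapped, at 5290 to 6676 for Gsk3a and 4540 to 6150 for Gsk3b.

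**Figure D1:**
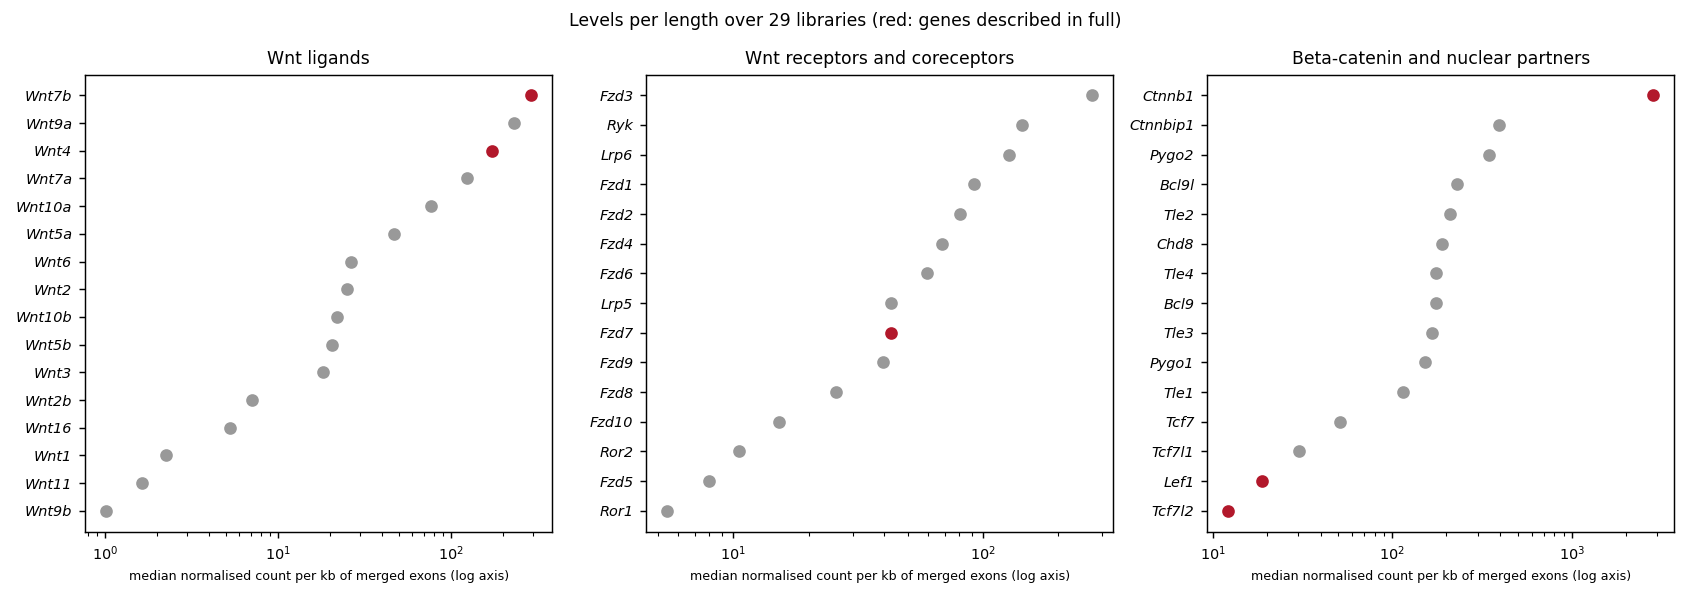
Median normalised read count per kilobase of merged exons over 29 libraries (log axis) for Wnt ligands, receptors and nuclear partners in the table, with the genes described in full in red. Wnt7b leads the ligands at 291, and Lef1 (18.8) and Tcf7l2 (12.2) close the list that Ctnnb1 leads at 2840.

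Lithium against vehicle in HT mice asked whether the drug moved transcripts of its own target pathway. None of the 10 genes passed the threshold. Of the 17881 genes tested, 0% were called by limma, 0 by edgeR and 13 by DESeq2. Before adjustment 2030 genes (11.4%) had a limma p under 0.05. The median difference of the 10 genes was 0.02 (log2), beside -0.0037 for all genes tested, and their median absolute difference was 0.034, beside 0.070. In bulk tissue, fewer cells of a type and less RNA per cell cannot be told apart, and this holds for each difference that follows.

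Among the kinases, Gsk3b (ENSMUSG00000022812, GRCm38 chr16:38089001-38246084, plus strand) had the smallest p of the 10 genes. Its normalised count was 4888, 5497 and 6149.8 (lowest, median and highest of 7) with lithium, and 4540.3, 5054 and 5238 in the 6 HT vehicle libraries. All but 1 of the lithium libraries lay above the whole vehicle group, and 5 of 7 lay above the highest WT library, at 5373. The difference was 0.14 ± 0.050 on the log2 scale (SE; 95% interval 0.038 to 0.24), a fold between 1.03 and 1.18, with an unadjusted p of 0.00939 and an adjusted p of 0.308, so it did not pass. Over 43 alternative fits it stayed between 0.10 and 0.16 and passed in none. Fluoxetine against vehicle gave Gsk3b 0.10 ± 0.049 (adjusted p = 0.636). Both differences are taken from the same HT vehicle libraries. Fluoxetine means were 5656 in females and 5048 in males, beside 4938 and 5010 with vehicle in HT. Lithium means were 5220 in females and 5764 in males. A sex difference of the fluoxetine value was not tested. HT vehicle itself lay at 4974 ± 251 (SD, n = 6) and WT vehicle at 5145 ± 237 (SD, n = 8). Over 29 libraries, with group means taken out, Gsk3b was closest to the layer 6 neuron marker mean (Pearson r = 0.615). Next came that of myelinating oligodendrocytes (r = 0.484). These means (log2, centred over all libraries) were -0.10 ± 0.31 and -0.15 ± 0.36 in HT vehicle (SD). In HT lithium they were 0.01 ± 0.20 and 0.06 ± 0.20. The part of these markers in the Gsk3b difference was not tested.

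Gsk3a (ENSMUSG00000057177, chr7:25228258-25237851, minus strand) had a difference near 0. It lay at 6200 ± 337 (SD, n = 7) with lithium and at 6086 ± 209 (SD, n = 6) with vehicle in HT, a difference of 0.02 ± 0.040 (log2, SE). The interval, -0.062 to 0.10, leaves room for a fold between 0.958 and 1.08.

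The beta-catenin transcript had the smallest range of the 10. Ctnnb1 (ENSMUSG00000006932, chr9:120929216-120960507, plus strand) lay at 14565 ± 632 normalised counts (SD, n = 8) in WT vehicle. In HT mice it lay at 14813 ± 456 with vehicle (n = 6), 14959.8 ± 427 with fluoxetine (n = 8) and 14791 ± 339 with lithium (n = 7). Its highest library was 1.14 times its lowest across all 29. Lithium minus vehicle was -0.0011 ± 0.031 (log2, SE), and the 95% interval of the fold ran from 0.956 to 1.04. Apc had a difference of -0.0011 ± 0.070 and Axin2, the scaffold that is itself a widely used Wnt target gene, of -0.00072 ± 0.051. The 95% interval of the Axin2 fold, averaged over both sexes in bulk tissue, ran from 0.929 to 1.08. It ran from 0.867 to 1.07 in females and from 0.937 to 1.14 in males. Axin2 lay at 906 ± 47.2 (SD) in WT vehicle, and in HT mice at 938 ± 73.0 with vehicle, 906 ± 65.1 with fluoxetine and 937 ± 50.2 with lithium. The Apc groups overlapped widely, and HT fluoxetine spread most, from 13909 to 22925.

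The nuclear factors had the lowest counts of the 10 genes per kilobase. Lef1 lay between 127 and 224 normalised counts in all 29 libraries, and lithium minus vehicle was 0.02 ± 0.096 (log2, SE). Tcf7l2, an abundant factor of thalamic neurons, varied most, from 68.7 to 179.6. Its lithium difference of 0.04 ± 0.19 had an interval from -0.35 to 0.43, so a fold of 0.786 or 1.35 lay within the error.

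Of the ligands, Wnt7b had a lithium difference of 0.14 ± 0.080 (log2, SE; adjusted p = 0.497), with 4 of 7 lithium libraries above the highest HT vehicle library. Wnt4 had 0.09 ± 0.099 (adjusted p = 0.753) and the receptor Fzd7 had -0.07 ± 0.081 (adjusted p = 0.763), and in neither did lithium and vehicle libraries separate.

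**Figure D2:**
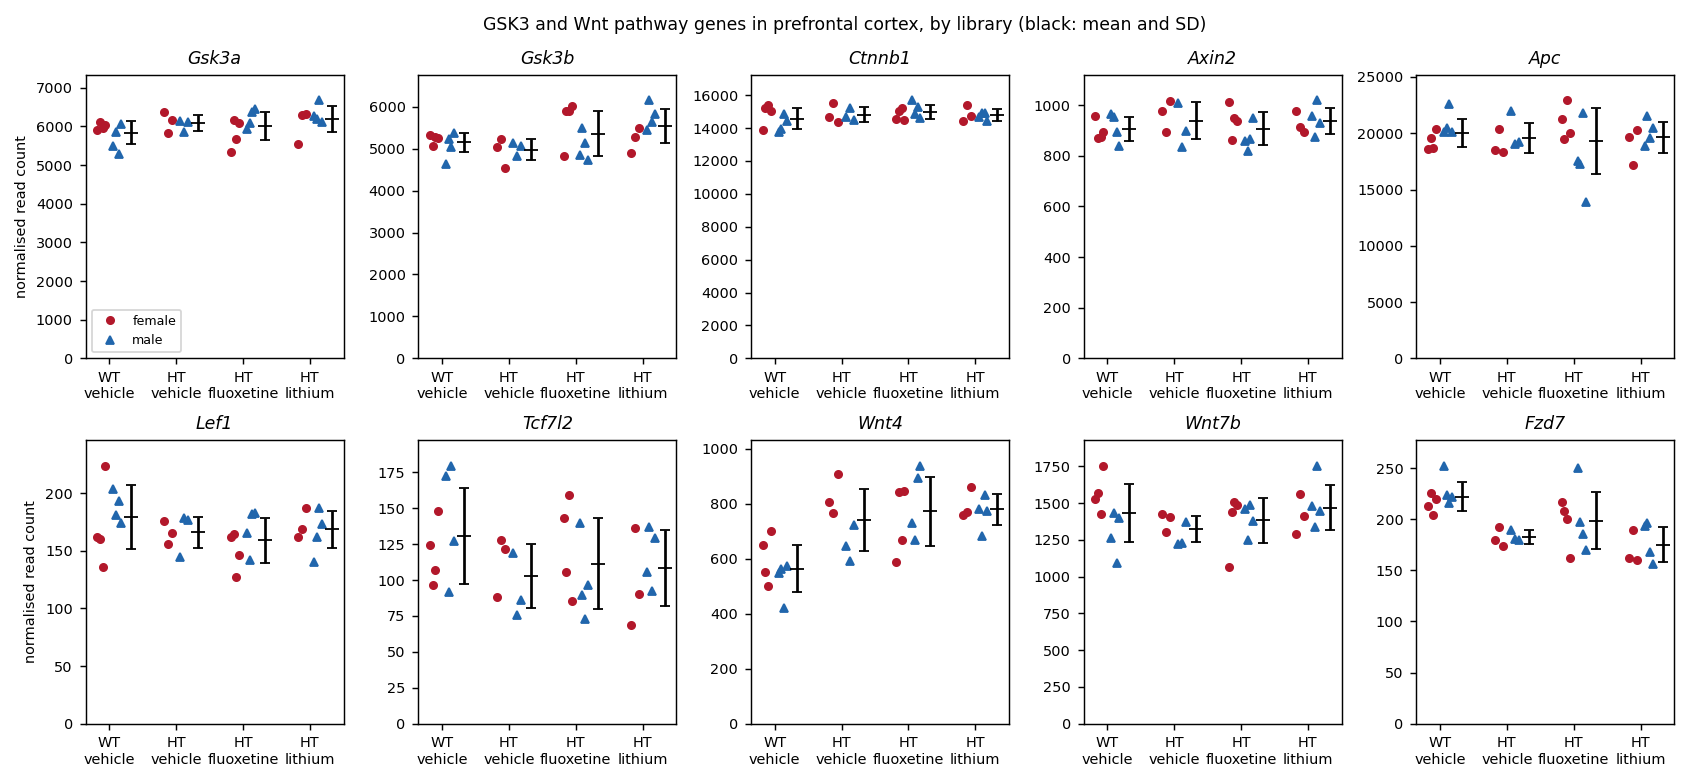
Normalised read count of each of the 10 genes (y axes from 0) in WT vehicle, HT vehicle, HT fluoxetine and HT lithium libraries, with 1 point per library (circles female, triangles male) and the mean ± SD in black. Gsk3b with lithium reaches 6149.8, and the Ctnnb1 groups lie on top of each other. The group mean of Wnt4 is higher and that of Fzd7 lower in each HT group than in WT. Against WT these differences passed the threshold for HT lithium and not for HT vehicle, and HT fluoxetine was not tested against WT.

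Split by sex, none of the 10 genes passed in HT females (0% of all genes called, 768 at an unadjusted p under 0.05) or in HT males (0% called, 1796 at an unadjusted p under 0.05). edgeR called 0 genes in either sex, and DESeq2 called 0 in females and 11 in males. In males the Gsk3b difference was 0.20 ± 0.069 (log2, SE; adjusted p = 0.370) and that of Wnt7b 0.24 ± 0.11 (adjusted p = 0.467), and in females they were 0.08 ± 0.073 and 0.04 ± 0.12. The female minus male difference of the lithium effect was tested directly. Neither the 10 genes nor any other gene passed (0% called, 523 at an unadjusted p under 0.05, 0 by edgeR and 0 by DESeq2). It was -0.12 ± 0.10 for Gsk3b, and the largest in size was -0.55 ± 0.38 for Tcf7l2.

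The other genes of the pathway gave no call with lithium against vehicle either, in 10 lists of ligands, receptors, turnover factors, inhibitors, complex members, nuclear partners, targets, Akt pathway genes, GSK3 substrates and planar polarity genes. List medians lay between -0.11 (secreted inhibitors, 9 tested) and 0.05 (planar polarity genes, 10 tested). Among target genes, 6 of 14 were above and 8 below 0. Nkd1, a feedback inhibitor induced by Wnt signalling, lay at 548 ± 24.1 in HT vehicle and 504 ± 30.3 in HT lithium (SD; -0.12 ± 0.045, adjusted p = 0.349), and Ccnd1, the cyclin D1 gene, had 0.09 ± 0.065 (adjusted p = 0.603). Upstream of GSK3, Pdpk1, a kinase that activates Akt, had 0.09 ± 0.046 (adjusted p = 0.476). Among nuclear corepressors Tle2 had -0.18 ± 0.078 and Tle1 -0.11 ± 0.048, and among substrates the calcium-regulated factor Nfatc2 had -0.18 ± 0.094. Genes are named here only from lists without a called gene in any comparison. The other lists held smaller unadjusted p with lithium, down to 0.00342 (limma).

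The widest lithium differences across all the lists belonged to Lgr6 (-1.15 ± 0.50, adjusted p = 0.396) and Lgr5 (-0.96 ± 0.46, adjusted p = 0.432), receptors for the R-spondins that strengthen Wnt signals. Lgr6 lay at 627 ± 262 normalised counts in HT vehicle and 343 ± 239 in HT lithium (SD). Of 9 secreted inhibitors tested, 5 had values below 0, among them Sfrp1 (-0.21 ± 0.11) and Sfrp2 (-0.31 ± 0.19), and 4 had values above 0, with none called. Olfactory bulb markers moved alongside: all 11 tested had lower values with lithium, with a median difference of -0.88 and 0 called. Their part in the Lgr and Sfrp values was not tested.

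Fluoxetine against vehicle in HT mice called none of the 10 genes (0% of all genes called, 1397 at an unadjusted p under 0.05, 0 by edgeR and 2 by DESeq2). Beside Gsk3b, the differences ran from -0.07 ± 0.093 for Lef1 to 0.11 ± 0.078 for Fzd7. Lithium against fluoxetine, which asks whether the drugs differed, also called none of them (0% of all genes called, 626 at an unadjusted p under 0.05, 0 by edgeR and 2 by DESeq2). Here the widest difference was in Fzd7, at -0.18 ± 0.075 (adjusted p = 0.985), and Gsk3b differed by 0.04 ± 0.047.

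Genotype was set against wild type within vehicle, where 37 genes (0.207% of those tested) passed and none of the 10 was among them. Wnt4 (ENSMUSG00000036856, chr4:137277489-137299726, plus strand) and Fzd7 (ENSMUSG00000041075, chr1:59482424-59486955, plus strand) had the smallest p of the 10. Wnt4 was at 422, 557 and 702 (lowest, median and highest of 8) in WT vehicle and at 593, 744 and 909 in the 6 HT vehicle libraries. All 6 lay above the WT median and 4 above the highest WT library. The difference was 0.39 ± 0.096 (log2, SE; adjusted p = 0.0726), 1.31-fold. Fzd7, which encodes a Frizzled receptor for Wnt ligands, was at 204, 221 and 252 in WT vehicle and at 174, 180.1 and 192 in HT vehicle, so the groups did not overlap, as was the case for 0.336% of all genes tested. Its difference was -0.28 ± 0.078 (adjusted p = 0.114), 0.824-fold. The remaining 8 genes had differences between -0.33 ± 0.18 (Tcf7l2) and 0.06 ± 0.039 (Gsk3a).

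Against wild type, HT mice given lithium differed in both genes past the threshold. In that comparison 340 genes (1.9%) were called, and of the 10 genes Wnt4 was higher and Fzd7 lower. Genotype and drug are joined in it, since no WT lithium group was analysed here. Wnt4 reached 684, 774 and 859 in the 7 HT lithium libraries, of which 6 exceeded the highest WT library, and the difference was 0.48 ± 0.093 (log2, SE; 95% interval 0.29 to 0.67; adjusted p = 0.00672), 1.40-fold. Fzd7 was at 156, 168 and 196 in them, all 7 below the lowest WT library, a separation seen in 0.442% of genes. The difference was -0.35 ± 0.075 (95% interval -0.50 to -0.19; adjusted p = 0.0152), 0.785-fold. HT fluoxetine libraries spread more, with Wnt4 at 588, 786 and 939, all 8 above the WT median, and Fzd7 at 162, 199 and 249.6, with 5 of 8 below the lowest WT library. The lithium minus vehicle differences within HT, given above, had intervals of -0.11 to 0.29 for Wnt4 and -0.24 to 0.10 for Fzd7. The other 8 genes had differences from WT between -0.29 ± 0.18 (Tcf7l2) and 0.09 ± 0.047 (Gsk3b).

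**Figure D3:**
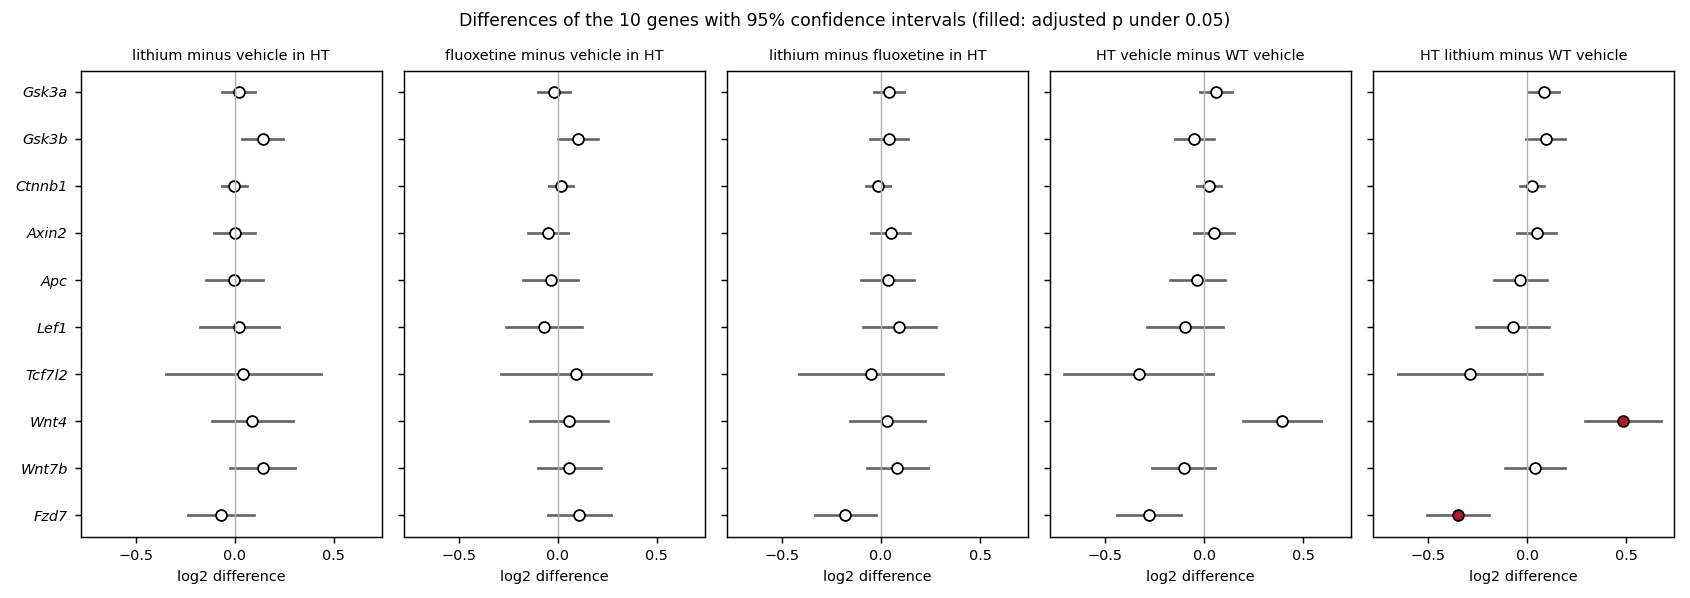
Log2 difference with its 95% confidence interval (x axis) of each of the 10 genes in 5 comparisons, with filled red points for an adjusted p under 0.05. The filled points are Wnt4 at 0.48 and Fzd7 at -0.35 in HT lithium minus WT vehicle, and the lithium minus vehicle intervals span 0 for all genes but Gsk3b.

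Markers of cortical excitatory neurons moved with Wnt4. All 8 of these markers had higher values in HT lithium than in WT vehicle, with a median of 0.18 (log2) and 2 called. Without Tbr1 their mean, centred over all libraries, was -0.10 ± 0.15 in WT vehicle and 0.10 ± 0.087 in HT lithium (SD), with HT vehicle (0.03 ± 0.13) and HT fluoxetine (-0.0014 ± 0.15) between them. Once each group's mean was taken out, the level of Wnt4 rose and fell over the 29 libraries with Neurod6, one of those markers (Pearson r = 0.862). With the marker mean as a covariate, chosen after the data were seen, the Wnt4 difference between HT lithium and WT vehicle was 0.24 (adjusted p = 0.0546) and that of Fzd7 -0.28 (adjusted p = 0.206). The part of these markers in the Wnt4 difference was not tested. Without the 9 libraries high in striatal or olfactory markers, Wnt4 had 0.41 (adjusted p = 0.0521) and Fzd7 -0.43 (adjusted p = 0.0408). With thalamic and myelin marker means as covariates, and without HT lithium female 3, Fzd7 had -0.33 in each fit (adjusted p = 0.0571 and 0.0647). Over all 43 alternatives the adjusted p ran from 0.000132 to 0.0546 for Wnt4 and from 0.00304 to 0.206 for Fzd7.

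In the same comparison, where 1.9% of all genes tested were called, 4 further pathway genes were called. The ligand Wnt10a was higher, at 232 ± 33.1 normalised counts in HT lithium and 176 ± 20.9 in WT vehicle (SD; 0.41 ± 0.10, adjusted p = 0.0301). The receptor Fzd6 was lower, at 277 ± 18.6 and 324 ± 40.8 (-0.22 ± 0.058, adjusted p = 0.0492). Of 15 receptors and coreceptors, all but Fzd9, Lrp5 and Ror2 had lower values in HT vehicle than in WT vehicle, with none called. In HT lithium against WT vehicle 14 of the 15 had lower values, with a list median of -0.13 and 2 called. Markers of other cell types were lower in the same comparison: all 10 fibroblast markers (median -0.26, 0 called), 10 of 12 astrocyte markers (median -0.07, 1 called) and all 11 olfactory bulb markers tested (median -1.01, 0 called). The summed fibroblast markers ran from 7005 to 10415 normalised counts in WT vehicle and from 6297 to 8627 in HT lithium, and those of astrocytes from 162089 to 188722 and from 161957 to 172056. Of all the marker means, Fzd7 was closest to that of fibroblasts (r = 0.504 over 29 libraries, group means taken out). The part of these markers in the receptor values, Fzd7 included, was not tested. Csnk1d, a casein kinase of the pathway, was higher by 0.12 ± 0.029 (adjusted p = 0.0267), at 3908 ± 165 and 3608 ± 195. Vangl2, a planar polarity gene, was lower, at 350.3 ± 18.8 and 409 ± 16.8 (-0.23 ± 0.057, adjusted p = 0.0312). All 7 lithium libraries lay below the lowest WT library, a separation seen in 0.442% of all genes tested. HT vehicle and HT fluoxetine means were 215 and 190 for Wnt10a, and 285 and 278 for Fzd6. They were 3831 and 3828 for Csnk1d, and 368 and 357 for Vangl2. For these 4 genes both groups thus lay on the same side of WT as HT lithium. None of the 4 was called in HT vehicle minus WT vehicle, and HT fluoxetine was not tested against WT. In HT lithium minus WT vehicle, Csnk1d passed in 31 of 43 alternative fits, Wnt10a in 30, Vangl2 in 27 and Fzd6 in 10. Wnt4 passed in 41 and Fzd7 in 40. The lists of secretion and turnover factors, secreted inhibitors, nuclear partners, targets, Akt pathway genes and substrates held no called gene.

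**Figure D4:**
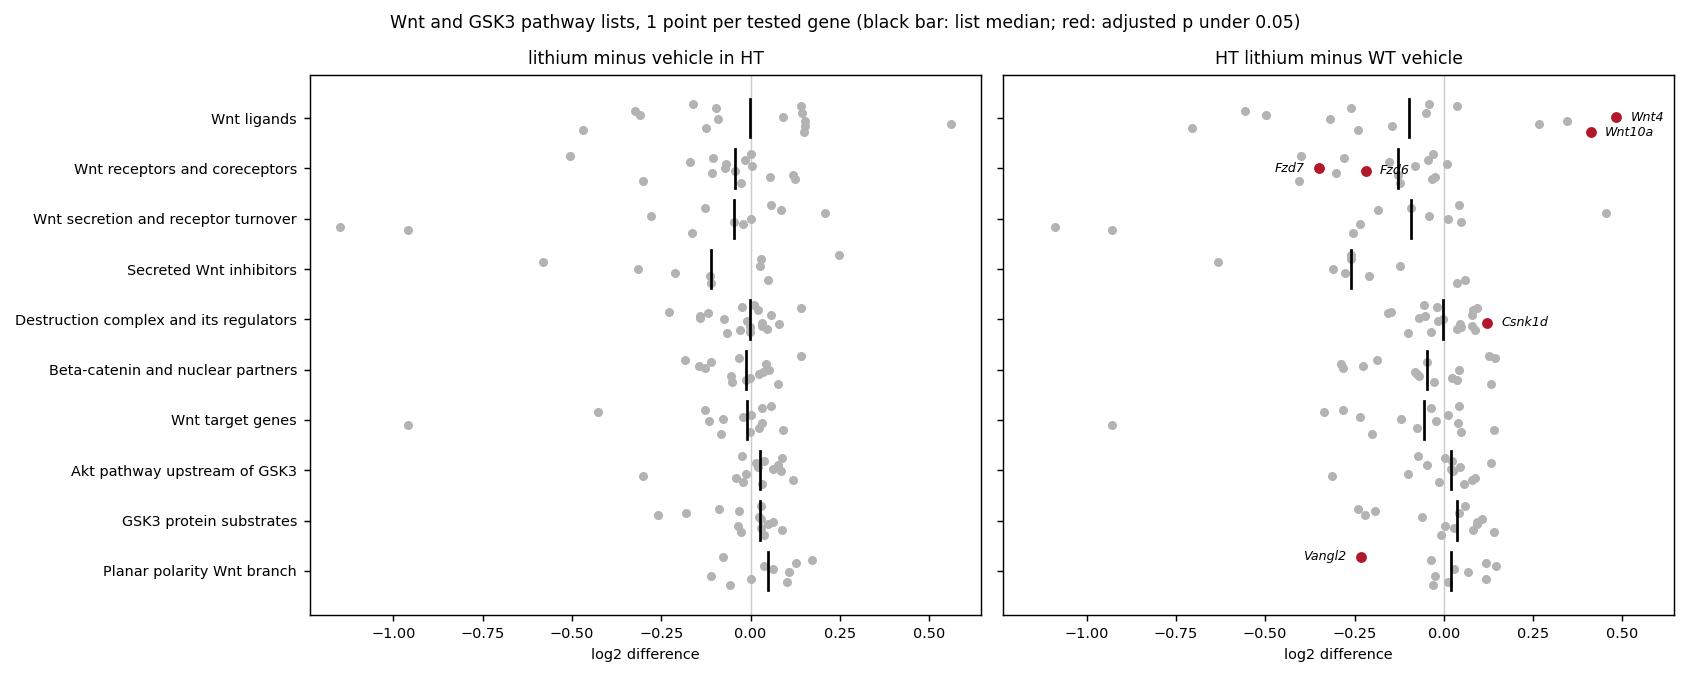
Log2 differences (x axis) of all tested genes of 10 Wnt and GSK3 pathway lists, with 1 point per gene, the list median as a black bar and genes with an adjusted p under 0.05 in red, for lithium minus vehicle in HT (left) and HT lithium minus WT vehicle (right). No gene is red on the left, and 6 are red on the right: Wnt4, Wnt10a, Fzd7, Fzd6, Csnk1d and Vangl2.

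Some of the 10 genes varied together between mice of the same group, as a description over 29 libraries after each group mean was taken out. Wnt4, Wnt7b and Gsk3a rose and fell together (Pearson r = 0.712 for the ligands, 0.680 for Gsk3a with Wnt4 and 0.724 with Wnt7b), and all 3 followed the excitatory neuron marker mean (r = 0.863, 0.810 and 0.83). The genes closest to Gsk3a were Snap47 (r = 0.931), Chp1 and Ctxn1, those closest to Gsk3b were Lonrf2 (r = 0.895), Rgs17 and Fut9, and those closest to Wnt7b were Wwc1 (r = 0.886), Eri3 and Olfm1. Lef1 was closest to F11r (r = 0.712), Cdh5, the gene of an endothelial cadherin, and Arap3, and had r = 0.711 with the endothelial marker mean. Axin2 was closest to Tmem145 (r = 0.818), BC017158 and Evc2. It ran opposite to the marker means of newly formed (r = -0.73) and myelinating oligodendrocytes (r = -0.681). Among the 10 genes, Axin2 ran opposite to Ctnnb1 (r = -0.583) and Gsk3b (r = -0.553). Wnt4 was closest to Dmtn (r = 0.873) and Prkar1b beside Neurod6, Apc to Nexmif (r = 0.891), Zfp704 and Nsd1, Ctnnb1 to Sorcs2 (r = 0.755), Nacc2 and Fam163b, Tcf7l2 to Tax1bp3 (r = 0.805), Eif4ebp2 and N4bp2, and Fzd7 to Frem2 (r = 0.759), Pofut1 and Ncapd2. These libraries share tissue dissection and scaling, which the correlations cannot separate from the genes themselves.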

How the data were processed

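Bulk RNA sequencing of prefrontal cortex was deposited as a normalised signal, in which the authors had scaled read counts by a library-specific size factor, as the values themselves show (whole multiples of 1 step per library within 1e-04). The submitters' processing notes list Salmon 0.11.2, R 3.6.0, DESeq2 1.19.11 and GRCm38, with no role given. The kit was stranded and poly(A) selected, per the labels' protocols. The strand setting of the counting is not given in the sources used here, and 7 of the 10 genes overlap a gene of the opposite strand (Wnt4, Fzd7 and Tcf7l2 do not).

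Values were analysed as log2(value + 1) with limma 3.58.1 in R 4.3.3: 29 libraries, 1 mean for each genotype, treatment and sex, an intensity trend, 21 residual degrees of freedom, and two-sided p adjusted by Benjamini-Hochberg over the 17881 genes that reached 10 in 3 or more libraries, at a threshold of 0.05. A difference for both sexes together averages those of females and males. Errors are SE on differences and SD on group values. The same fit was tested on simulated data. Of 18240 identifiers, 18227 matched GENCODE names on GRCm38. Whole reads recovered from the signal (22.81 M to 31.71 M per library) went into edgeR 4.0.16 and DESeq2 1.42.0 as alternatives, with other filters, pseudocounts, scalings, covariates and fits without each library in turn.

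The 10 genes and the pathway and marker lists were chosen with earlier results of these data known. The text names all 10 genes, each pathway gene past the threshold in any comparison, up to 4 genes with the smallest lithium p from lists without one, and for each of the 10 the 3 genes most correlated with it among 13821 with a mean of at least 50. A gene that this rule selects from the Akt pathway list is not reported here. The labels name animals by replicate only, so p-values measure the spread between these samples, which may in part be technical.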

Additional observations from a re-analysis of the deposited data

Results flagged for a closer look

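Of 50 sets of 4 libraries of 1 gene, genotype, treatment and sex, 3 held a library far from the other 3, and chance alone marks about 1 set in 20. In the HT fluoxetine females, Gsk3b was at 4818 in female 1 and at 5889 in the next lowest, and Wnt7b was at 1066 in female 1 and at 1441 in the next lowest. Apc was at 22575 in WT vehicle male 3 and at 20425 in the next highest WT vehicle male. These 2 libraries also had the highest olfactory bulb marker means of all 29, at 1.61 and 1.72 log2 units above the centre. The part of those markers in the 3 values was not tested.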

How the results depend on the processing

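Each result was recomputed under 43 alternatives, of which 29 leave out 1 library. No called value reversed its direction. Of 3582 values for single genes 139 changed sign, none of them called in either fit, 79 lost a call and 7 gained one.

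With HT vehicle minus WT vehicle, the 37 calls became 63 with a filter at 50, 18 with sex as an additive term, 95 with striatal and olfactory covariates, 81 with thalamic and myelin covariates, 79 with the excitatory neuron covariate, 215 with DESeq2 and 0 without the 9 libraries high in neighbouring tissue markers. The 340 calls of HT lithium minus WT vehicle became 157, 171, 54, 583 and 32 with the striatal, thalamic and excitatory covariates, DESeq2 and without those libraries. DESeq2 gave 13 calls for lithium minus vehicle, 11 in males, 2 for fluoxetine minus vehicle and 2 for lithium minus fluoxetine. Without those 9 libraries the last 2 comparisons and the female minus male lithium difference each had 1. The thalamic, myelin and excitatory covariates were chosen after seeing the data.

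Leaving out 1 library moved the genotype count between 2 (without HT vehicle female 1) and 176 (without WT vehicle male 4). The HT lithium minus WT count moved between 85 (without HT lithium female 3) and 723 (without WT vehicle male 4). The counts for fluoxetine minus vehicle and lithium minus fluoxetine moved between 0 and 1 (without HT fluoxetine female 2), and that for lithium in males between 0 and 1 (without HT lithium male 2). The cause was not tested.

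The Wnt4 genotype difference passed in 6 alternatives and that of Fzd7 in 1. DESeq2 gave Wnt4 0.39 (adjusted p = 0.0125), and over all alternatives its adjusted p ran from 0.0125 to 0.402.

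Libraries were matched by the replicate number of their titles. Of 40 same-numbered pairs 6 had a correlation over 0.1, the median was -0.024 and the highest 0.31. The library names of the HT vehicle females carry other numbers than their titles, so these values cannot decide whether the libraries were paired. With the replicate block, by title number, 47 genes were called for genotype and 395 for HT lithium minus WT vehicle. The block gave Wnt4 0.45 (adjusted p = 0.0485) and Fzd7 -0.32 (adjusted p = 0.0368) for genotype, and Fzd6 an adjusted p of 0.0612 against WT. What limits the precision of Tcf7l2 was not tested.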
